A study of Caenorhabditis elegans with 4 samples.

Results

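The 6 Hox genes of Caenorhabditis elegans (ceh-13, lin-39, mab-5, egl-5, php-3 and nob-1) were examined for binding of UNC-62 in L3 larvae. They were taken by name from the ce11 annotation, out of 19973 protein-coding genes, and each was given a window of its gene body with 10000 bp on each side. Chromatin immunoprecipitation followed by sequencing (ChIP-seq) had been carried out on whole animals of strain OP600, mixed in sex and of unknown age, with 4 biological replicates of 1 group. The strain carries unc119(ed3) and the integrated transgene wgIs600, which holds unc-62 tagged with TY1, EGFP and FLAG, and an unc-119 rescue. All replicates share this genotype, there is no untagged group, and the control library was not analysed here. The labels of replicates 1 and 2 name a stock center as the source of the worms, with fragments sized between 150 and 350 bp (label set A). Those of replicates 3 and 4 name the laboratory as the source, with sonication by microtip (label set B).

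Hox genes encode homeodomain transcription factors that give cells their identity along the head-to-tail axis, and their order on the chromosome often follows their order of action along the body. UNC-62 is a TALE homeodomain protein of the Homothorax and MEIS family. Its relatives bind DNA beside PBX-type proteins and Hox proteins, and in other animals they also act on Hox gene expression. In the worm, ceh-13 is the labial-type anterior gene, lin-39 patterns the mid-body and the vulval precursor cells, and mab-5 acts in the posterior body and in the migration of Q neuroblast descendants. The Abdominal-B-type genes egl-5, php-3 and nob-1 act towards the tail. Below, ceh-13, lin-39 and mab-5 are called anterior and the other members posterior.

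The DNA at the summits of all 7 optimal peaks in the windows is printed first. All 7 lay in windows of anterior genes. The optimal list is the authors' list of reproducible peaks. Distances run from the gene's nearest transcript start to the summit, negative upstream. Sequences are from the RefSeq genome on WBcel235 (ce11), 5′ to 3′ on the plus strand, with 50 bp on each side of the summit. Transcribed UTR bases were left out at lin-39. The highest regions of egl-5 and nob-1 in the authors' merged list, neither of them in the optimal list, are added for comparison. Capitals mark matches on either strand to TGATNNAT (a loose form of the joint PBX and Hox site), TGACAG (a MEIS-type core) or TAATTA (a homeodomain core).
ceh-13 at -6443 bp, chrIII:7549167-7549267: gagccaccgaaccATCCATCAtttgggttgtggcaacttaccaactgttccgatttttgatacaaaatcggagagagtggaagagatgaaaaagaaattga
ceh-13 at -2568 bp, chrIII:7553042-7553142: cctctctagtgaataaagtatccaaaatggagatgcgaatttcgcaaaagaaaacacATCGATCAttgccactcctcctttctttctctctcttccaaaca
ceh-13 at -592 bp, chrIII:7555018-7555118: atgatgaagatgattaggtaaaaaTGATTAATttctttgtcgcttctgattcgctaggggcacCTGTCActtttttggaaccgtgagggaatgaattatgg
ceh-13 at +4357 bp, chrIII:7559967-7560067: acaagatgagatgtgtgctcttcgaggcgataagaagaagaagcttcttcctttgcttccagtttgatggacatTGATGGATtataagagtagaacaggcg
lin-39 at -28 bp, chrIII:7534806-7534883: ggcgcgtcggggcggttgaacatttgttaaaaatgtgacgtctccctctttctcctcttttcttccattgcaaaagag
lin-39 at +2465 bp, chrIII:7532290-7532390: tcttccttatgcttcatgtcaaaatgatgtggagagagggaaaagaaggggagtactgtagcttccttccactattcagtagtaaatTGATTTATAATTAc
mab-5 at -915 bp, chrIII:7784319-7784419: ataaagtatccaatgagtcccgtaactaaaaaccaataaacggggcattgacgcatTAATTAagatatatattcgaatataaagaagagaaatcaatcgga
egl-5, highest merged region, chrIII:7824113-7824213: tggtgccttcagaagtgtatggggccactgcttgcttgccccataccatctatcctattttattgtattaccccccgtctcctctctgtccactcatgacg
nob-1, highest merged region, chrIII:12086508-12086608: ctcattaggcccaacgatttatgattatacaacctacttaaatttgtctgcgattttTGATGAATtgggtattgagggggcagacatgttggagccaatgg

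The windows of the anterior genes held 7 of the 1037 optimal peaks, and the windows of the posterior genes held 0. There were 4 optimal peaks at ceh-13, 2 at lin-39 and 1 at mab-5. Thus 3 of 6 Hox genes had an optimal peak, against 17.5% of all protein-coding genes with windows of the same flank. The median over genes was 0, so the 0 at each posterior gene was the usual value. Windows with at least 4 optimal peaks, as at ceh-13, made up 0.26% of all genes, and windows with at least 2, as at lin-39, made up 3.65%. The authors' signal per peak ran from 42.1 to 70.4 at the Hox genes, with a median of 54.4, beside a median of 50.5 and a maximum of 243.8 over the whole optimal list. The Hox peaks were therefore of middling height: 5 of 7 lay above the list's median.

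All members lie on chromosome III. The gene lin-39 (WBGene00003024, 7528641 to 7536632, minus strand) and ceh-13 (WBGene00000437, 7555660 to 7558041, plus strand) are separated by 19027 bp, and their windows share 973 bp. Next come mab-5 (WBGene00003102, 7776835 to 7783454, minus strand) and egl-5 (WBGene00001174, 7814374 to 7817141, plus strand), 30919 bp apart. The pair php-3 (WBGene00004024, 12074218 to 12077556, minus strand) and nob-1 (WBGene00003779, 12077793 to 12084316, minus strand) sits 4257076 bp beyond egl-5. Only 236 bp separate the members of this pair, so their windows share 19764 bp and most of their regions.

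**Figure D1:**
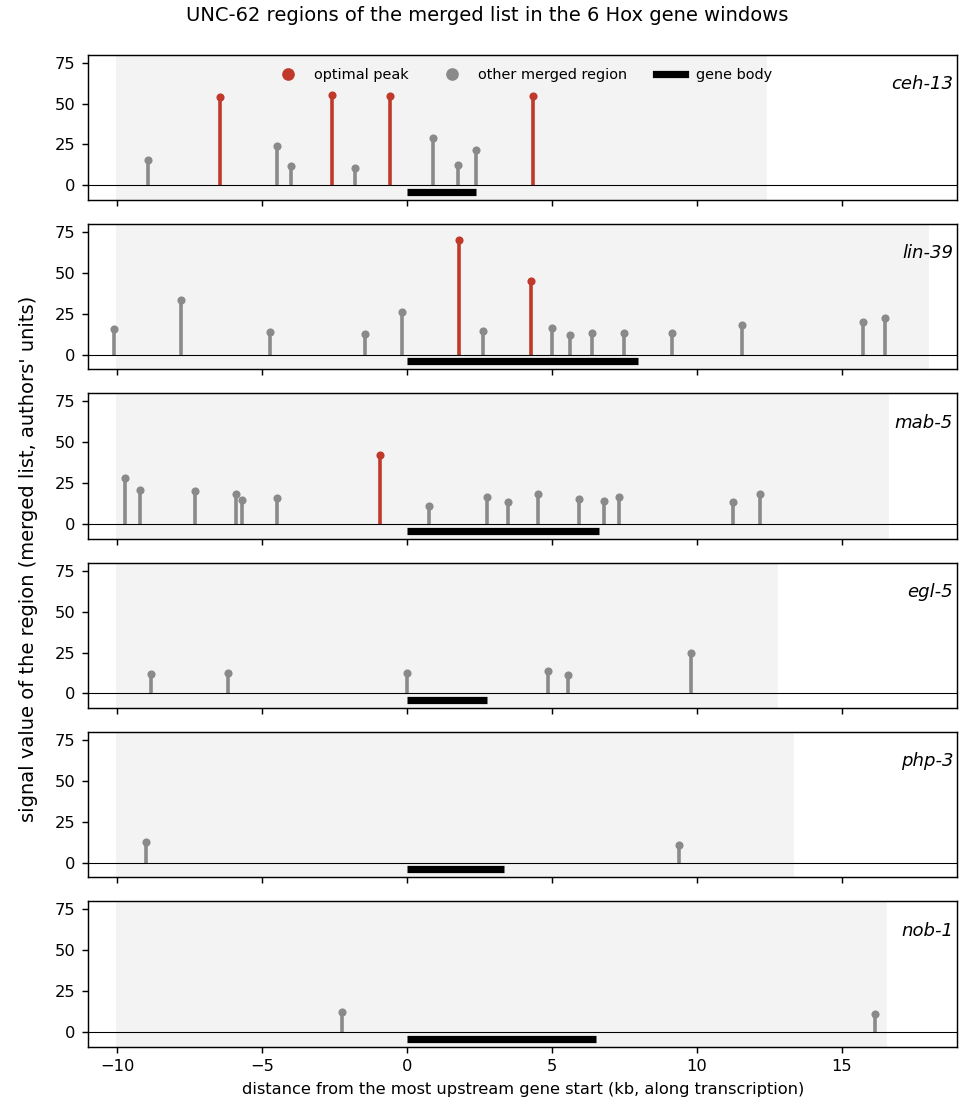
Map of the 6 Hox gene windows (grey shading) by distance in kb from the most upstream start of each gene in the direction of transcription. Each stem is a merged region, as tall as the authors' signal value and red where it is an optimal peak, and the black bar is the gene body. Optimal peaks were present at ceh-13 (4), lin-39 (2) and mab-5 (1) and in 0 of the 3 posterior windows. The lin-39 peak given at -28 bp in the text lies inside the gene here, because it sits at the downstream of 2 starts.

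At ceh-13, 3 of the 4 optimal peaks lay upstream and 1 downstream of the gene. The peak at -592 bp (7554890 to 7555245, signal 54.4) was in the promoter, defined as 1000 bp upstream of a start. The overlapping regions ranked 477 in replicate 1, 29968 in replicate 2, 132 in replicate 3 and 374 in replicate 4, where rank 1 is the highest signal of a replicate's list. Thus replicates 1, 3 and 4 had this region near the top, whereas replicate 2 listed it close to its end. The intergenic peak at -2568 bp (7552914 to 7553269, signal 55.4) ranked 440, 1019, 1181 and 2179 in replicates 1 to 4, the narrowest span of ranks among the ceh-13 peaks. The intergenic peak at -6443 bp (7549039 to 7549394, signal 54.1) ranked 358, 14514, 260 and 3758, high in replicates 1 and 3 and low in replicate 2. The fourth peak, at +4357 bp (7559839 to 7560194, signal 54.5), ranked 330, 2050, 181 and 370, but the replicate 2 region had its summit 365 bp from the merged summit. The peak lies beyond the 3′ end of ceh-13 and is nearer to the start of lgc-12, a ligand-gated ion channel gene, at -2155 bp.

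At lin-39, the peak of highest signal among the Hox genes (70.4, 7534655 to 7535010) lay in the promoter of the downstream start, at -28 bp. Its regions ranked 244, 1459, 122 and 2023 in replicates 1 to 4. The replicate 4 region of that rank had its summit 342 bp from the merged summit. A second, weaker replicate 4 region (7534505 to 7534904, rank 7491) also overlapped the peak. An intronic peak at +2465 bp (7532162 to 7532517, signal 45.1) ranked 546, 451 and 1279 in replicates 1, 2 and 4, and replicate 3 listed no region there. The upstream start of lin-39 had no optimal peak but a merged region at -166 bp (7536620 to 7536975, merged rank 2104), which ranked 2111, 1126 and 488 in replicates 1 to 3 and was absent from the replicate 4 list. The 2 lin-39 promoters therefore both held regions, and neither was seen at the top of all 4 lists.

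At mab-5, the single optimal peak (7784191 to 7784546, signal 42.1) lay in the promoter at -915 bp. Its regions ranked 747, 7422, 2511 and 25231 in replicates 1 to 4, so it stood among the 1037 highest of replicate 1 alone. Of the 7 Hox peaks this had the lowest merged signal and the fewest replicates with a region among the 1037 highest, although all 4 replicates listed a region there.

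A peak was counted as supported by a replicate when it overlapped, by at least 1 bp, one of that replicate's 1037 highest regions, the number that matches the length of the optimal list. The Hox peaks were supported in 7 of 7 cases by replicate 1, 2 by replicate 2, 4 by replicate 3 and 2 by replicate 4. These shares were 100%, 28.6%, 57.1% and 28.6%, or 53.6% ± 33.8 (SD, n = 4), beside 78.9%, 59.8%, 51.5% and 32.2% of all optimal peaks (55.6% ± 19.4). The means thus lay within 1 SD of each other, with replicate 1 above and replicate 2 below the share of the whole list. By peak, 1 was supported by 1 replicate, 4 by 2 and 2 by 3, and 0 of 7 by all 4. Of all optimal peaks, 14.1% were supported by all 4 and 3.38% by 0 replicates. The 7 Hox peaks are too few to tell 0 from the share of 14.1%. The optimal list was itself derived from these replicates, so this recurrence is a description.

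**Figure D2:**
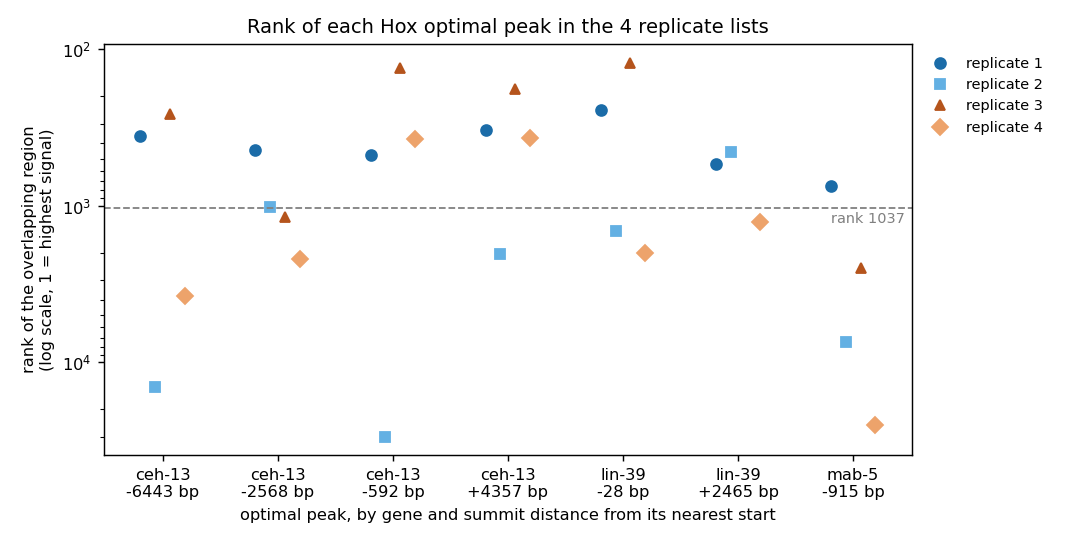
Rank of the replicate region overlapping each Hox optimal peak (vertical log scale, rank 1 at the top), with 1 point per replicate and a dashed line at rank 1037. Points above the line are supported: all 7 in replicate 1 and 2 in replicate 4. The lin-39 peak at +2465 bp has no replicate 3 point because no region was listed.

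In each replicate's own 1037 highest regions, ceh-13 held 4, 1, 3 and 2 regions in replicates 1 to 4 (2.5 ± 1.29, SD, n = 4). The counts were 2, 2, 2 and 0 at lin-39 (1.5 ± 1) and 3, 0, 1 and 0 at mab-5 (1 ± 1.41). At egl-5 they were 0, 1, 0 and 0, and at php-3 and nob-1 they were 0 in every replicate. The 1037 highest included 29 and 30 mitochondrial regions in replicates 3 and 4 and 0 in replicates 1 and 2. Of the members, ceh-13 alone had a region among the 1037 highest in all 4 replicates. In replicate 2 this rested on a region ranked 1019, close to the limit. At lin-39 only replicate 4 lacked such a region, and its best rank there was 1279. The share of all genes with such a region in all 4 replicates was not computed. Counted by gene, 3 of 6 members held at least 1 in replicate 1, 3 in replicate 2, 3 in replicate 3 and 1 in replicate 4. Among all genes, 17.7%, 17.4%, 16.9% and 18% did. The single egl-5 region (7814339 to 7814728, in replicate 2) ranked 1026, just inside the limit of 1037, with its summit in the first part of the gene at +154 bp in a coding exon. Replicate 1 ranked its own region there 26895, and replicates 3 and 4 listed none.

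Every window held at least 2 regions of the longer merged list. By its deposited title that list holds peaks together with background, so a region in it is not by itself evidence of binding. The −log10 q-value was 3.42 at the highest lin-39 peak and 1.82 at the highest egl-5 region. At the 2 regions of the php-3 and nob-1 windows it was 0.0935 and 0.0199. In the merged list of 18556 regions, windows held 11 regions at ceh-13, 16 at lin-39, 16 at mab-5, 6 at egl-5, 2 at php-3 and 2 at nob-1, or 50 distinct regions. Holding at least 1 was no distinction, since 93.5% of all genes did. Among all genes 0.406% had at least 16, as at lin-39 and mab-5, and 3.51% had at least 11, as at ceh-13. At least 6, as at egl-5, were found for 27.3% of genes, and at least 2, as at php-3 and nob-1, for 82.2%. The median over genes was 4. With flanks of 5000 bp the merged counts of the posterior genes fell to 3 at egl-5, 0 at php-3 and 1 at nob-1, and in the stricter merged list, cut at its median signal, to 1, 0 and 0. In the merged list, anterior windows thus lay in the upper tail of the gene distribution and the php-3 and nob-1 windows below its median. In the whole replicate lists, given below, the anterior windows lay less far out in replicate 4. The php-3 and nob-1 windows lay above the median in replicate 2.

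Merged signal at the anterior genes had a median of 17.5 (range 10.8 to 70.4, 42 regions) and at the posterior genes a median of 12.4 (range 10.8 to 24.9, 8 regions), around the list median of 14.2. Outside the optimal list, the highest merged region at lin-39 was intergenic at -7803 bp (7544257 to 7544612, rank 1263). The best posterior region lay at +9783 bp from the egl-5 start (7823985 to 7824340, rank 2368, signal 24.9), nearer to the start of egl-45, which encodes a translation initiation factor subunit. At nob-1 the best was at -2242 bp (12086380 to 12086735, rank 13096, signal 12.4). The other region of the php-3 and nob-1 windows fell in a coding exon of zyg-8, a doublecortin-family kinase gene, with rank 18223. In distance, the nearest optimal summit was 592 bp from a ceh-13 start, 28 bp from a lin-39 start and 915 bp from the mab-5 start. It was 30005 bp away at egl-5, 74126 bp at php-3 and 76005 bp at nob-1.

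Not every region in a window belongs to the Hox gene by proximity. For 34 of the 50 merged regions the nearest protein-coding start was that of a Hox gene, and for 16 it was another gene's. The share was high at ceh-13 (10 of 11), intermediate at lin-39 (11 of 15) and low at mab-5 (7 of 16), whose window holds 7 other protein-coding genes. Here a region shared by 2 windows was counted once. Between the bodies of lin-39 and ceh-13, 19027 bp held 11 merged and 3 optimal summits. Between mab-5 and egl-5, 30919 bp held 10 merged summits and 1 optimal summit.

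By class, the 7 Hox optimal peaks were 3 promoter, 3 intergenic and 1 intron, beside 41.4%, 34.9% and 19.8% of the whole optimal list. Of the 50 merged regions, 52% were intergenic and 18% promoter, beside 26.9% and 29.5% of all merged regions. Posterior windows held 6 intergenic regions, 1 in a 5′ UTR and 1 in a coding exon, with 0 promoter regions of 8. Anterior windows held 9 promoter, 12 intron, 20 intergenic and 1 coding exon regions of 42. Of the promoter regions, those at -28 and -166 bp at lin-39, -592 bp at ceh-13 and -915 bp at mab-5 were nearest to a Hox start. The others were nearest to the starts of cux-7, ZK686.6 or bath-15. The windows of ceh-13, lin-39 and mab-5 hold 4, 3 and 7 other protein-coding genes, and each posterior window holds 1. With the promoter cut to 500 bp, the promoter counts were 4 of the 50 merged regions and 1 of the 7 optimal peaks.

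Density corrects for the larger total length of the anterior windows, with bases shared by 2 windows counted once, as between php-3 and nob-1. Per 10 kb, optimal peaks numbered 0.921 in the anterior windows (76021 bp) and 0 in the posterior windows (52867 bp), against 0.103 over the genome. Merged regions numbered 5.53 and 1.51 per 10 kb, against 1.85. In the replicates' 1037 highest regions the anterior densities were 1.18, 0.395, 0.789 and 0.263 per 10 kb, and the posterior densities were 0, 0.189, 0 and 0. The anterior value was higher in 4 of 4 replicates, with a difference of 0.610 ± 0.464 (SD, n = 4), 0.695 within label set A and 0.526 within label set B. In the whole replicate lists, anterior densities were 7.63, 6.71, 5.79 and 3.82 per 10 kb and posterior densities 1.70, 3.03, 2.84 and 2.65. Over the genome these lists had 2.99, 2.99, 2.99 and 2.80 regions per 10 kb. The posterior values were thus near the genome value in replicates 2 to 4 and below it in replicate 1. The anterior and posterior values did not overlap, and the difference was 3.43 ± 1.97 (4.81 in set A, 2.06 in set B). It was smallest in replicate 4 (1.17) and largest in replicate 1 (5.93). With mab-5 counted as posterior, the merged difference fell from 4.01 to 2.24 per 10 kb. No p-value is given, because members and grouping were chosen with these lists known. Read counts are not in the lists used here, so depth is unknown, and its part in the differences between replicates was not tested.

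**Figure D3:**
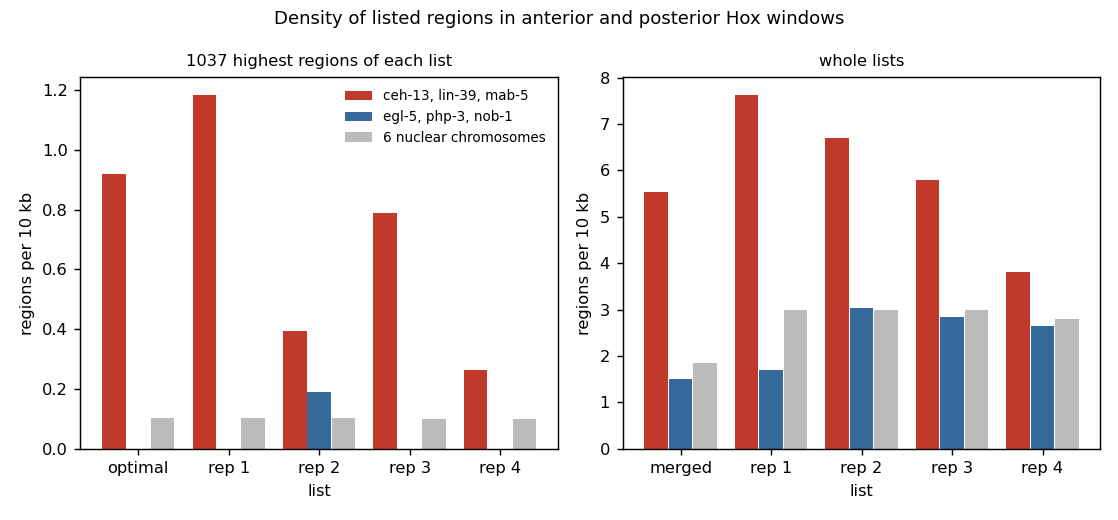
Regions per 10 kb in the anterior windows (red bars), the posterior windows (blue) and the 6 nuclear chromosomes (grey). The left panel shows the optimal list and the 1037 highest regions of each replicate, the right panel the merged list and each replicate's whole list; bars are single values without error. Red exceeds blue in every list, with the smallest gap of the whole replicate lists in replicate 4 (3.82 against 2.65).

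The best rank of any region in a window gave the order ceh-13, lin-39, mab-5, egl-5, php-3, nob-1. At ceh-13 the best ranks were 330, 1019, 132 and 370 in replicates 1 to 4 (mean log10 rank 2.55 ± 0.36, SD, n = 4). At lin-39 they were 244, 451, 122 and 1279 (2.56 ± 0.43). The best rank was higher up the list at lin-39 in replicates 1, 2 and 3 and at ceh-13 in replicate 4, so ceh-13 stands first in the mean order through replicate 4 alone. Without replicate 4, lin-39 came first. At mab-5 they were 602, 3644, 744 and 1586 (3.10 ± 0.35), worse than at lin-39 in every replicate. At egl-5 they were 1903, 1026, 5279 and 1715 (3.31 ± 0.30). At php-3 they were 13492, 4809, 1762 and 3170 (3.64 ± 0.37), and at nob-1 13492, 5506, 1762 and 3170 (3.65 ± 0.38), which is the same region in 3 of 4 replicates. The median gene had a best rank of 4138, 3775, 3946 and 3491, so php-3 and nob-1 lay on its far side in replicates 1 and 2 and on its near side in replicates 3 and 4. The egl-5 window lay on the far side in replicate 3, where 60.3% of genes ranked as high or higher. At mab-5 in replicate 2 that share was 48.6%, close to the median.

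Neighbours in this order were compared by an exact two-sided sign-flip permutation test over the 4 replicates, which cannot go below p = 0.125. The order tested was set by these same ranks, so the p-values are no evidence for the order, and the SD gives the spread between replicates. The step from lin-39 to mab-5, 0.54 ± 0.37 in log10 rank, had the same sign in 4 of 4 replicates, with exact p = 0.125 (0.625 adjusted by Benjamini-Hochberg over 5 pairs). The steps from mab-5 to egl-5 (0.21 ± 0.61, exact p = 0.625) and from egl-5 to php-3 (0.33 ± 0.59, exact p = 0.375) held in 3 of 4 replicates each. The pairs ceh-13 and lin-39, and php-3 and nob-1, each had exact p = 1. With 4 replicates no pair could have passed 0.05, so this test cannot show whether neighbours differ. Without replicate 3, egl-5 came before mab-5, and with 5000 bp flanks egl-5 fell behind nob-1, to a mean log10 rank of 3.75.

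**Figure D4:**
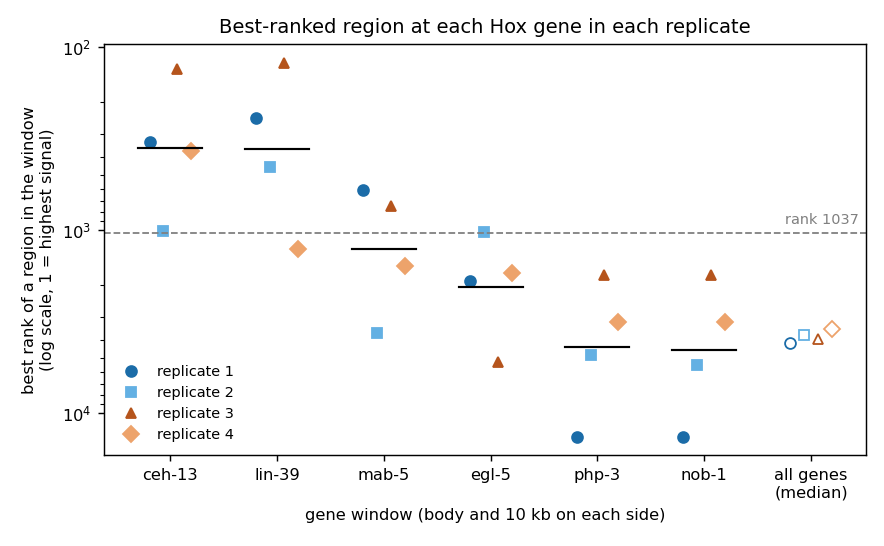
Best rank of any region in each Hox gene window (log scale, rank 1 at the top), with 1 filled point per replicate, a bar at the geometric mean, open points for the median gene and a dashed line at rank 1037. The geometric means run from 358 at ceh-13 to 4513 at nob-1, and the ranges of neighbouring genes overlap.

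Whole replicate lists of 28073 to 30000 regions gave a flatter picture. Counts per window in replicates 1 to 4 were 15, 12, 13 and 10 at ceh-13, 24, 24, 16 and 9 at lin-39, and 21, 16, 16 and 10 at mab-5. They were 7, 5, 8 and 7 at egl-5, 2, 9, 5 and 7 at php-3, and 1, 9, 6 and 5 at nob-1. Every member had a region in every list, as did 98.9%, 99.2%, 98.8% and 99.2% of all genes. Gene medians were 6, 7, 6 and 6. The egl-5 counts lay within 2 of these medians, whereas php-3 and nob-1 lay far below the median in replicate 1, where 96.8% and 98.9% of genes had as many regions or more, and above it in replicate 2. At ceh-13 the share of genes with as many regions or more was 3.02%, 8.79%, 7.39% and 16.3% in replicates 1 to 4. At lin-39 it was 0.155%, 0.135%, 2.43% and 24.2%, and at mab-5 it was 0.401%, 1.51%, 2.43% and 16.3%. Of the anterior regions, 69.0%, 64.7%, 77.3% and 72.4% overlapped a merged region, beside 44.4%, 12.5%, 33.3% and 21.4% of the posterior regions and 46.7%, 35.5%, 39.6% and 33.1% of all regions of the 4 lists. The anterior share was above that of the whole list in each replicate, and the posterior share below it, though only slightly in replicate 1. The posterior shares rest on 4 of 9, 2 of 16, 5 of 15 and 3 of 14 regions. The merged list was built from these same replicates and was denser in the anterior windows, so this overlap is a description.

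Sequence at the summits was searched on both strands within 50 bp. TGATNNAT was found at 5 of 7 Hox optimal peaks, the 4 at ceh-13 and the intronic one at lin-39, as marked in the printed sequences. It was found at 13.1% of all optimal peaks, 8.95% of merged summits and 7.82% of 29304 windows of the same length upstream of protein-coding starts. The Hox peaks were poorer in GC (median 39.6%, range 31.7 to 43.6%) than all optimal peaks (47.5%). Among the other optimal peaks in that GC range, a comparison chosen after the data were seen, 72 of 309 (23.3%) had TGATNNAT. Within 25 bp of the summit the Hox count was 1 of 7. Over the 50 merged regions it was 12, with 11 of 42 at anterior and 1 of 8 at posterior genes, the last being the nob-1 region printed above.

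TGACAG occurred at 1 of 7, the ceh-13 promoter peak, 16 bp from the summit and on the minus strand, and at 10.1% of all optimal peaks. TAATTA occurred at 2 of 7, the mab-5 promoter peak and the lin-39 intronic peak, where its first base is also the last base of the TGATNNAT match. Only 1.25% of all optimal peaks and 1.94% of the others in the Hox GC range held TAATTA, whereas 6.15% of the start-upstream windows did. TGATTGAT, the strict joint site, was at 0 of 7 and at 3.57% of all optimal peaks. These matches are letters in a window and are not evidence of occupancy by a named protein.

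Other genes were ranked for likeness to each member by the distance between their best ranks (log10) over the 4 replicates. Nearest to ceh-13 were F17C11.13 and F17C11.6 (distance 0.127 each), which lie together on chromosome V and share their regions. Nearest to lin-39 were C32D5.7 (0.243) and T05C12.4 (0.273), and to mab-5 gcy-19 (0.181) and hsp-75 (0.200). For egl-5 they were T07G12.2 (0.112) and fbxa-65 (0.129). F25G6.1 was nearest to both php-3 (0.0507) and nob-1 (0.0688), followed by C12D5.10 (0.109) and ugt-10 (0.103).

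Genes that work with Hox genes were counted the same way, against the 17.5% of all genes with an optimal peak. Of 4 TALE partners, 3 had an optimal summit in the window. There were 12 at unc-62 (best signal 210.5), where the endogenous gene and the transgene copy cannot be told apart, 3 at the PBX-type gene ceh-20 (217.2) and 1 at ceh-60 (39.1), and there were 0 at ceh-40. Of 14 regulators of Hox expression, 4 had one: egl-27, a chromatin gene of the MTA type (12 peaks, best signal 111.5), sor-1 (2 peaks, 111.5), the trithorax-related gene lin-59 (2 peaks, 78.1) and sor-3 (1 peak, 42.5). Of 8 genes described as acting downstream of Hox genes, 2 had one: mig-13, which acts in neuroblast migration (2 peaks, 52.4), and the cell fusion gene eff-1 (1 peak, 39.1). The highest signals at ceh-20, unc-62, egl-27, sor-1 and lin-59 exceeded the 70.4 at lin-39. All 26 genes had a merged region, as did 93.5% of all genes.

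Whole larvae were used, so strong binding in few cells and weak binding in many cannot be told apart. A single ChIP group does not show whether any Hox gene's expression depends on UNC-62.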

How the data were processed

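The authors deposited peak lists on ce11 for each of 4 replicates, for the merged replicates and as an optimal list. Per the notes beside these lists, the merged one was built from all 4 alignments and a control. Its title describes it as peaks and background, the input to the authors' reproducibility step. Per the deposited lists, each region has a signal value, a −log10 q-value and a summit offset. Aligner and peak caller: not given in the sources used here. The lists hold no read counts, so depth is unknown and no counting interval is given, and signal values were compared only within a list. Replicates were compared by rank.

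Genes came from Ensembl release 115, and regions were assigned to windows by overlap of at least 1 bp. Summits were classed by priority as promoter (1000 bp upstream), UTR, coding exon, intron or intergenic. The deposited −log10 q-values entered no test. Computation used Python 3.11.15, numpy 2.4.6, pandas 2.3.3, scipy 1.17.1 and matplotlib 3.10.9, and was tested on simulated data. The members, gene lists and motifs were chosen with earlier results of these data known. Named genes were the members, the 2 most alike per member, genes nearest to a region described, and listed genes with an optimal summit. The ce10 lists were not used. Nothing in the labels says how separate the replicate cultures were beyond calling them biological, so spreads may be partly technical.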

Additional observations from a re-analysis of the deposited data

Results flagged for a closer look

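Of 24 sets of 4 replicate values tested for a sample far from the others, 2 were flagged. Chance flags about 1 in 20 sets of continuous values. That rate does not hold for small counts, where any set of 3 equal values and 1 other is flagged. The number of lin-39 regions among the 1037 highest was 0 in replicate 4 and 2 in each of replicates 1 to 3. The number of egl-5 regions among the 1037 highest was 1 in replicate 2 and 0 in the others. These counts are small whole numbers, so a single region near the limit of 1037 changes them: the egl-5 region ranked 1026, and the best lin-39 region of replicate 4 ranked 1279.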

How the results depend on the processing

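Of 167 values under other settings, 139 moved by less than the spread or limit set for them, 28 moved by more and 0 reversed. The neighbour test, which cannot pass 0.05, is not counted. The 44 that left out 1 replicate were all among the 139. Each of these is a mean over replicates, and leaving out 1 of 4 values cannot shift a mean by its SD. Their place among the 139 was therefore fixed in advance and is no test of robustness. In them the anterior minus posterior density ranged from 0.419 to 0.745 per 10 kb in the 1037 highest regions and from 2.60 to 4.19 in the whole lists. The posterior density of the 1037 highest regions rests on replicate 2 alone. With the merged list cut at its median signal (and the optimal list likewise), 30 of the 50 merged regions were left, lin-39 kept 1 optimal peak and mab-5 kept 0. With the number of highest regions doubled to 2074, 17.5% of the Hox merged regions were supported, beside 10.3% of all merged regions. With 1037 the shares were 11% ± 6.22 and 5.63% ± 0.608 (SD, n = 4). Flanks of 5000 bp moved the egl-5 mean log10 rank from 3.31 to 3.75, and flanks of 20000 bp gave lin-39 5 optimal peaks, of which 3 are ceh-13 peaks already counted, with 8 in all windows. Counting mab-5 as posterior gave a merged difference of 2.244. A promoter of 500 bp gave 4 merged and 1 optimal promoter summits. A motif reach of 25 bp gave TGATNNAT at 1 optimal and 6 merged summits, TAATTA at 1 and 3, and TGACAG at 3 merged summits. A reach of 100 bp gave TGATNNAT at 19 and TGATTGAT at 2 merged summits. The cause of these moves was not tested beyond the settings themselves. No replicate block between groups could be fitted, as there is 1 group; comparisons between genes were made within replicates.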
